A study of Anas platyrhynchos with 11 samples.

Results

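Voltage-gated potassium channels of the Kv1 to Kv4 families were examined in Meissner corpuscles and bill skin of the duck (Anas platyrhynchos). The members were 9 genes chosen by name, with earlier results of these data known. All 9 were found among the 16823 genes of the deposited table. They comprised 7 pore-forming subunits (KCNA1 and KCNA4 of Kv1, KCNB2 of Kv2, KCNC1 and KCNC4 of Kv3, KCND2 and KCND3 of Kv4) and 2 cytoplasmic beta subunits of Kv1 channels (KCNAB1 and KCNAB2). All 9 passed the filter on low counts.

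Meissner corpuscles are touch end organs of the skin in which a sensory axon ends between lamellar cells. The study compared 5 libraries of Meissner corpuscles with 6 libraries of bill skin, asking which genes differ between the end organ and its surroundings. Corpuscles were drawn by hand into a glass pipette, 2 to 10 per sample, and cells of nearby skin without corpuscles were collected for the other group. Each corpuscle library therefore pools several end organs with every cell type they hold. The sources used here give no strain, sex or age. The libraries came from 3 isolations of skin, and which library came from which is not stated, so a p-value here covers the spread between libraries and no more. A low-input kit was used for every corpuscle library and a messenger RNA kit for every skin library. Effects of kit and of tissue cannot be told apart.

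Voltage-gated potassium channels open when a membrane depolarises and let potassium leave the cell, which repolarises it. Their pores are built of 4 subunits of the same family. Kv1 channels act near threshold and set how readily an axon fires, Kv2 channels carry a slow delayed-rectifier current, Kv3 channels repolarise fast enough for high firing rates, and Kv4 channels carry a rapidly inactivating A-type current below threshold. Beta subunits bind Kv1 pores from the cytoplasm, and in mammals KCNAB1 adds fast inactivation. In mammalian touch afferents these channels shape how long a neuron fires during a stimulus.

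Total counts were 5766279 in corpuscle 4, 11241654 to 11886808 in the other corpuscle libraries and 13263776 to 20925841 in skin libraries. Corpuscle libraries varied more among themselves, with a biological coefficient of variation of 65.0% against 24.2% in skin. Along the second principal component, with 12.5% of variance, corpuscle 4 scored -124 and corpuscle 5 -35.5, while corpuscles 1 to 3 scored 53.2 to 59.5, so results are also given without corpuscles 4 and 5. Corpuscles 4 and 5 were also fitted with skin 5 and 6 alone, a split that no label names and that was chosen with earlier results known. It holds only 2 libraries per tissue, so a failure to pass there says little. Of 9 Merkel cell markers tested 8 were higher in corpuscles, and the sum of all 9, mostly CHGB, was 14384 to 79157 CPM in corpuscles and 956 to 2071 CPM in skin. Of 9 Schwann and lamellar cell markers tested none was called higher and 4 were lower, and S100B had no read in any library. Of 10 sensory axon markers 5 were higher and 1 was lower, with sums of 286 to 1622 CPM in corpuscles and 130 to 175 CPM in skin. UCHL1 made up 67.8% to 82.2% of that sum in corpuscles, and without it the sums were 88.4 to 372 CPM in corpuscles and 92.7 to 129 CPM in skin, which overlapped. All 6 keratinocyte markers tested were lower, as were 6 of 8 fibroblast and 6 of 7 endothelium markers, against 23.5% of all genes tested. None of these was called higher. Of 6 muscle markers tested 2 were higher and 3 lower, and of 4 immune cell markers 1 was higher and 1 lower. In bulk samples of this kind, fewer cells of a type and less RNA per cell cannot be told apart.

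Most of the Kv genes were higher in corpuscles than in skin. KCND2 rose most, at 135 ± 78.9 CPM (read counts scaled to library size by TMM factors) over the 5 corpuscle libraries and 5.65 ± 1.12 CPM over the 6 skin libraries (mean ± SD). KCNB2, KCNA4 and KCNC4 also rose by more than 8-fold, KCNC1, KCNAB2 and KCND3 rose by less, and KCNA1 and KCNAB1 did not pass the test. In all, 7 of the 9 members were called higher by edgeR's quasi-likelihood test at a Benjamini-Hochberg adjusted p of 0.05 over 14638 genes, where 33.0% of all genes tested were called higher and 56.4% were called in either direction. No member was called lower by edgeR (0 at an unadjusted p under 0.05, 0 by DESeq2), against 23.5% of all genes. The median log2 fold change of the members, corpuscle minus skin, was 2.43, and that of all genes tested was 0.18. In 6 members every corpuscle library lay above every skin library, which held for 22.3% of all genes tested. Groups that did not overlap, in either direction, made up 41.3% of genes. The members were chosen with earlier results known, so these shares only describe them, and the list was not tested. In the authors' deposited table, 7 members had a false discovery rate under 0.05, all 7 lower in skin. In either direction, 9920 of its 16823 genes had a false discovery rate under 0.05. That comparison rests on the same counts, so it is no separate support.

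**Figure D1:**
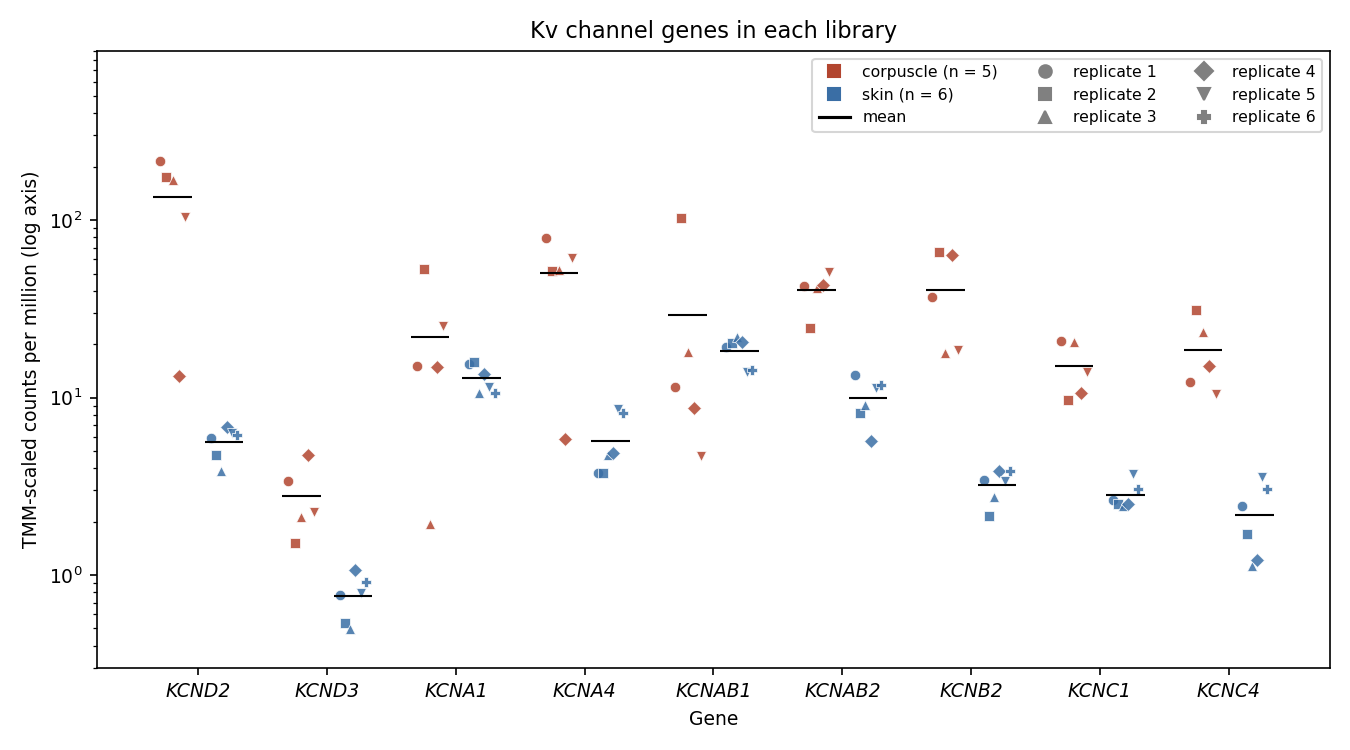
TMM-scaled CPM (log axis) of the 9 Kv genes in each corpuscle (red, left of each pair) and skin library (blue, right); marker shapes give the replicate number and black lines the means. KCND2 shows the widest gap between the tissue means, and corpuscle 4 (diamond) lies far below the other corpuscles in KCND2 and KCNA4.

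As a yardstick for low-level reads, 45 genes known from other organs (liver, pituitary, retina, germ cells) were in the table, on lists written after the members' values had been seen. Their median was 1.34 FPKM in corpuscles and 0.0959 FPKM in skin, and their 95th percentile was 4.55 FPKM in corpuscles and 2.85 FPKM in skin. Of the 33 of them that were tested, 26 (78.8%) were called higher in corpuscles and 1 lower, with a median log2 fold change of 3.43. The share of members called higher, 77.8%, was close to that share. On mean level, 5 members (KCND2, KCNAB2, KCNB2, KCNA4 and KCNAB1) lay above that 95th percentile in corpuscles and 4 (KCNC4, KCNC1, KCNA1 and KCND3) lay at or under it. In skin 2 members, the beta subunits KCNAB1 and KCNAB2, lay above the skin 95th percentile, and no pore-forming member did. By library, KCNAB2 lay above the 95th percentile of that library in 5 of 5 corpuscles, KCND2, KCNA4 and KCNB2 in 4, KCNAB1 and KCNC4 in 2, KCNA1 and KCNC1 in 1 and KCND3 in none. The median of the organ genes by library was highest in corpuscle 4, at 2.13 FPKM, and 0.773 to 1.12 FPKM in the other corpuscles. The part of such low-level reads in the members' rise was not tested.

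Kv4 channels, whose A-type current delays firing, held both the highest and the lowest member in corpuscles, per gene length. KCND2 (Kv4.2) had 214, 175, 169, 13.2 and 104 CPM in corpuscles 1 to 5, and in skin a lowest value of 3.87, a median of 6.06 and a highest value of 6.82 CPM. Every corpuscle lay above every skin library, but corpuscle 4, the library of least depth, came nearest to skin, with 83 reads of KCND2. Its log2 fold change was 4.58 ± 0.52 (SE; edgeR adjusted p = 4.3e-06). Without corpuscles 4 and 5 it was 5.04, and among corpuscles 4 and 5 with skin 5 and 6 it was 3.39 and did not pass (edgeR adjusted p = 0.0844). Corpuscle 4 also had the lowest sum of Merkel cell markers, 14384 CPM against 40814 to 79157 CPM in the other corpuscles, of which CHGB alone made up 82.1% to 96.1%. Without CHGB the sum was lowest in corpuscle 5 (1578 CPM), with 1779 CPM in corpuscle 4. Of the 9 markers, 3 (KRT20, ISL1 and CHGB) were lowest in corpuscle 4 and 3 (SOX2, INSM1 and CHGA) in corpuscle 5. ATOH1 was highest in corpuscle 4, at 66.9 CPM. The sum of 8 fibroblast markers was 44895 CPM in corpuscle 4 and 40821 CPM in corpuscle 5. In corpuscles 1 to 3 that sum was 13670 to 26338 CPM, and in skin 49112 to 79888 CPM. The sum of 4 immune cell markers was highest among corpuscles in corpuscle 4, at 55.0 CPM, with 38.0 to 63.2 CPM in skin. The part of any of these markers in the level of KCND2 was not tested.

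KCND3 (Kv4.3) was scarce in both tissues. It had 3.37, 1.51, 2.13, 4.76 and 2.25 CPM in corpuscles 1 to 5, and 0.499, 0.781 and 1.06 CPM as the lowest, median and highest in skin. The groups did not overlap, on 16 to 38 reads per corpuscle library and 8 to 14 per skin library. KCND3 rose by 1.86 ± 0.42 on the log2 scale (edgeR adjusted p = 0.00142), by 1.62 without corpuscles 4 and 5 and by 2.02 among corpuscles 4 and 5 with skin 5 and 6. Its mean in corpuscles, 0.778 FPKM, was under the median of the genes of unrelated organs.

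Among Kv1 pore subunits, KCNA4 rose and KCNA1 did not pass. The difference in their ratio between tissues did not pass either (exact permutation test, adjusted p = 0.0519). KCNA4 (Kv1.4), which forms a rapidly inactivating Kv1 channel, had 79.4, 51.7, 52.6, 5.87 and 60.8 CPM in corpuscles 1 to 5. In skin its lowest, median and highest values were 3.77, 4.80 and 8.67 CPM. Corpuscles 1, 2, 3 and 5 lay above all skin libraries, while corpuscle 4 lay within the skin range. The log2 fold change was 3.15 ± 0.51 (edgeR adjusted p = 9.53e-05), or 3.43 without corpuscles 4 and 5. Among corpuscles 1 to 3 with skin 1 to 4 it was 3.83, and among corpuscles 4 and 5 with skin 5 and 6 it was 2.17 and did not pass (edgeR adjusted p = 0.229). KCNA4 thus shared with KCND2 its low level in corpuscle 4. In a RefSeq table of the Pekin duck the KCNA4 gene overlaps FSHB and ARL14EP, and the use of strand in counting was not given in the sources used here, so reads of overlapping genes could not be told apart. ARL14EP averaged 86.0 ± 45.2 CPM in corpuscle libraries and 27.6 ± 5.06 CPM in skin libraries.

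KCNA1 (Kv1.1), a channel of axons in mammals, varied widely between corpuscles. It had 15.1, 52.7, 1.95, 14.9 and 25.4 CPM in corpuscles 1 to 5, a 27.1-fold range, and 10.6, 12.5 and 15.9 CPM as the lowest, median and highest in skin. Corpuscles 2 and 5 lay above all skin libraries, corpuscle 3 lay below them and the other 2 within their range. The log2 fold change was 0.77 ± 0.54 (edgeR adjusted p = 0.239). It was 0.84 without corpuscles 4 and 5 and 0.14 without corpuscle 2, and without corpuscle 3 it passed (1.06, edgeR adjusted p = 0.0299).

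Of the Kv1 beta subunits, KCNAB2 passed and KCNAB1 did not. The difference in their ratio between tissues did not pass (exact permutation test, adjusted p = 0.0606). KCNAB2, the beta subunit most common in mammalian brain, was the steadiest member among corpuscles. It had 42.7, 24.8, 41.2, 43.1 and 50.7 CPM in corpuscles 1 to 5, and 5.69, 10.2 and 13.4 CPM as the lowest, median and highest in skin. No libraries overlapped, and the log2 fold change was 2.03 ± 0.32 (edgeR adjusted p = 6.69e-05), or 1.87 without corpuscles 4 and 5. It was the only member whose coefficient of variation was lower in corpuscles (23.6%) than in skin (28.2%).

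KCNAB1 rested on a single corpuscle library. It had 11.5, 103, 17.99, 8.72 and 4.68 CPM in corpuscles 1 to 5, and 13.9, 19.7 and 21.9 CPM as the lowest, median and highest in skin. Corpuscle 2 lay above all skin libraries, corpuscle 3 within their range, and corpuscles 1, 4 and 5 below them. The log2 fold change was 0.67 ± 0.62 (edgeR adjusted p = 0.375), and it was -0.78 without corpuscle 2 (edgeR adjusted p = 0.0891). Without corpuscles 4 and 5 it was 1.27, and among corpuscles 4 and 5 with skin 5 and 6 it was -1.06, neither passing (edgeR adjusted p = 0.0557 and 0.144).

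KCNB2 (Kv2.2), a delayed rectifier, rose strongly. It had 37.1, 66.2, 17.9, 63.3 and 18.5 CPM in corpuscles 1 to 5, and 2.16, 3.40 and 3.87 CPM as the lowest, median and highest in skin. All corpuscles lay above all skin libraries, and corpuscle 4, low in KCND2 and KCNA4, was the second highest here. The log2 fold change was 3.65 ± 0.42 (edgeR adjusted p = 5.23e-06), or 3.64 without corpuscles 4 and 5 and 3.48 among corpuscles 4 and 5 with skin 5 and 6.

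Both Kv3 genes, of channels that repolarise fast-firing neurons, rose without overlap between tissues. KCNC1 (Kv3.1) had 20.9, 9.70, 20.6, 10.6 and 13.9 CPM in corpuscles 1 to 5, and 2.43, 2.59 and 3.71 CPM as the lowest, median and highest in skin. Its log2 fold change was 2.43 ± 0.34 (edgeR adjusted p = 2.84e-05), or 2.59 without corpuscles 4 and 5. Its RefSeq gene overlaps SERGEF, which averaged 42.6 ± 13.9 CPM in corpuscle libraries and 23.6 ± 4.17 CPM in skin libraries. KCNC4 (Kv3.4) had 12.2, 31.1, 23.5, 15.1 and 10.5 CPM in corpuscles 1 to 5, and 1.12, 2.08 and 3.57 CPM as the lowest, median and highest in skin. Its log2 fold change was 3.07 ± 0.44 (edgeR adjusted p = 3e-05), or 3.34 without corpuscles 4 and 5. It was 3.76 among corpuscles 1 to 3 with skin 1 to 4, and 1.98 among corpuscles 4 and 5 with skin 5 and 6, passing in both.

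The corpuscle libraries did not share one order of members. Corpuscle 1 had the highest level of KCNA4, KCNC1 and KCND2, and corpuscle 2 that of KCNA1, KCNAB1, KCNB2 and KCNC4. Corpuscle 4 was lowest in KCNA4 and KCND2 and highest in KCND3. The coefficient of variation among corpuscles ran from 23.6% (KCNAB2) to 143% (KCNAB1), and among skin libraries from 17.5% (KCNC1) to 46.0% (KCNC4). It was larger in corpuscles for 8 of the 9 members.

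Compared per kilobase of gene length, as deposited FPKM, the order of levels in corpuscles was KCND2 (24.2 ± 14.3 FPKM), KCNAB2 (12.9 ± 3.02), KCNB2 (11.1 ± 6.34), KCNA4 (10.99 ± 6.03), KCNAB1 (8.17 ± 11.6), KCNC4 (3.62 ± 1.70), KCNC1 (3.23 ± 1.18), KCNA1 (3.07 ± 2.66) and KCND3 (0.778 ± 0.347). No neighbours in this order differed by more than the larger of their SDs, and KCND2 was above KCNAB2 in 4 of 5 libraries. In skin the order was KCNAB1 (5.39 ± 0.994 FPKM), KCNAB2 (3.33 ± 0.937), KCNA1 (1.90 ± 0.353), KCNA4 (1.30 ± 0.501), KCND2 (1.06 ± 0.210), KCNB2 (0.938 ± 0.193), KCNC1 (0.630 ± 0.110), KCNC4 (0.452 ± 0.208) and KCND3 (0.223 ± 0.0631). There KCNA4 and KCND2, KCND2 and KCNB2, and KCNC1 and KCNC4 did not differ by more than the larger SD, while the other neighbours did. The first in corpuscles was thus a Kv4 pore subunit and the first in skin a beta subunit.

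The make-up of the pore-forming RNA was described over the 11 Kv1 to Kv4 pore genes in the table, 7 of them members. Their summed level was 64.0 ± 19.0 FPKM in corpuscles and 9.22 ± 0.985 FPKM in skin. KCND2 made up 34.4 ± 16.4% of that sum in corpuscles and 11.4 ± 1.72% in skin, and KCNA1 4.90 ± 3.50% in corpuscles and 20.9 ± 4.62% in skin. Kv1 genes as a family made up 25.2 ± 7.90% in corpuscles and 45.0 ± 2.59% in skin, and Kv4 genes 35.8 ± 15.4% in corpuscles and 13.8 ± 2.29% in skin. Corpuscle 4 stood apart, with KCND2 at 6.11% and KCNB2 at 45.4% of the sum, where the other corpuscles had KCND2 at 35.2% to 47.2%. In skin every pore-forming member lay under the 2.85 FPKM 95th percentile of the genes of unrelated organs, so the skin shares rest on low levels. No test was made on these shares, since the genes were chosen with results of these data known.

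**Figure D2:**
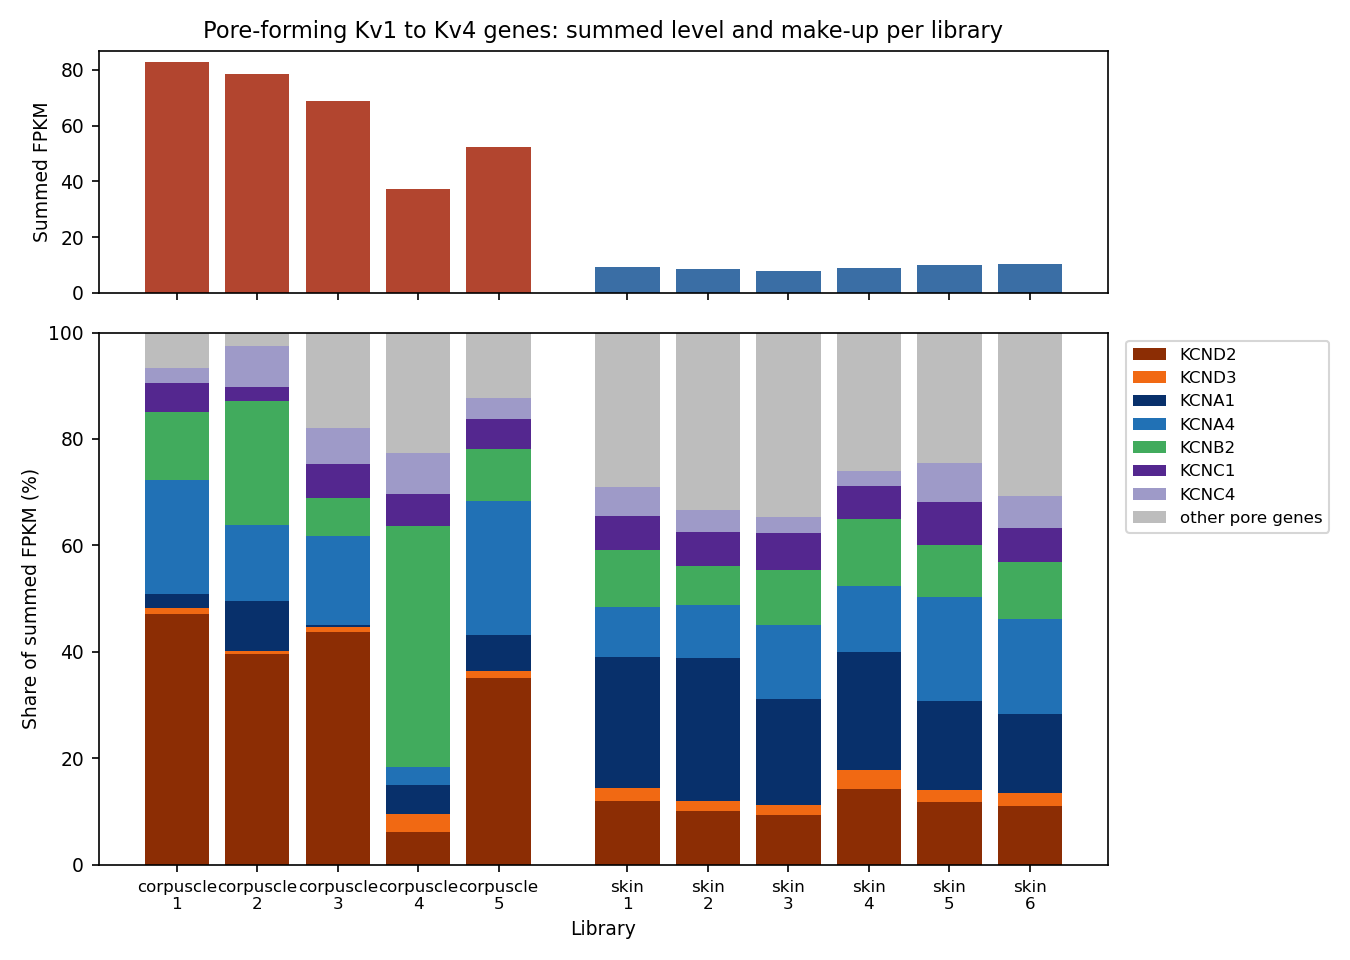
Upper panel, summed FPKM of 11 pore-forming Kv1 to Kv4 genes in each library (red, corpuscle; blue, skin); lower panel, the percent of that sum from each of the 7 members and from the other pore genes together (grey). KCND2 (brown, at the base) takes 35.2% to 47.2% in corpuscles 1, 2, 3 and 5 but 6.11% in corpuscle 4, and the 6 skin libraries resemble each other.

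Ratios of related genes inside a library do not depend on how libraries are scaled. The genes of these ratios, too, were chosen with results of these data known, so the p-values below only describe them. On the log2 scale, per gene length, KCND2 over KCND3 was 4.56 ± 2.15 in corpuscles and 2.22 ± 0.157 in skin, a difference of 2.34 (two-sided exact permutation test p = 0.0455, adjusted over 4 ratios 0.0606). The ratio was higher than in any skin library in corpuscles 1, 2, 3 and 5, at 4.85 to 6.17, and lower in corpuscle 4, at 0.81. Without corpuscle 4, which lay below skin, the difference was 3.28 (exact permutation test, adjusted p = 0.00952). KCNA1 over KCNA4 was -2.05 ± 2.32 in corpuscles and 0.61 ± 0.748 in skin, a difference of -2.66 (two-sided exact permutation p = 0.0130, adjusted p = 0.0519). It passed without corpuscle 2 (-3.01, exact permutation, adjusted p = 0.0381) and without corpuscle 4 (-3.34, exact permutation, adjusted p = 0.00952). KCNAB1 over KCNAB2 was -1.54 ± 2.07 in corpuscles and 0.73 ± 0.644 in skin, a difference of -2.27 (two-sided exact permutation p = 0.0411, adjusted p = 0.0606). It passed without corpuscle 2 (-3.12, exact permutation, adjusted p = 0.0190), and was -1.26 without corpuscles 4 and 5. KCNC1 over KCNC4 was -0.12 ± 0.944 in corpuscles and 0.59 ± 0.494 in skin, a difference of -0.71 (two-sided exact permutation p = 0.143, also after adjustment). None of the 4 differences in ratio passed after adjustment over all 11 libraries, in a design whose smallest possible p is 0.00216. Leaving out a library whose value was known cannot decide whether a ratio differs. No conclusion is therefore drawn from the passes without corpuscle 2 or corpuscle 4.

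**Figure D3:**
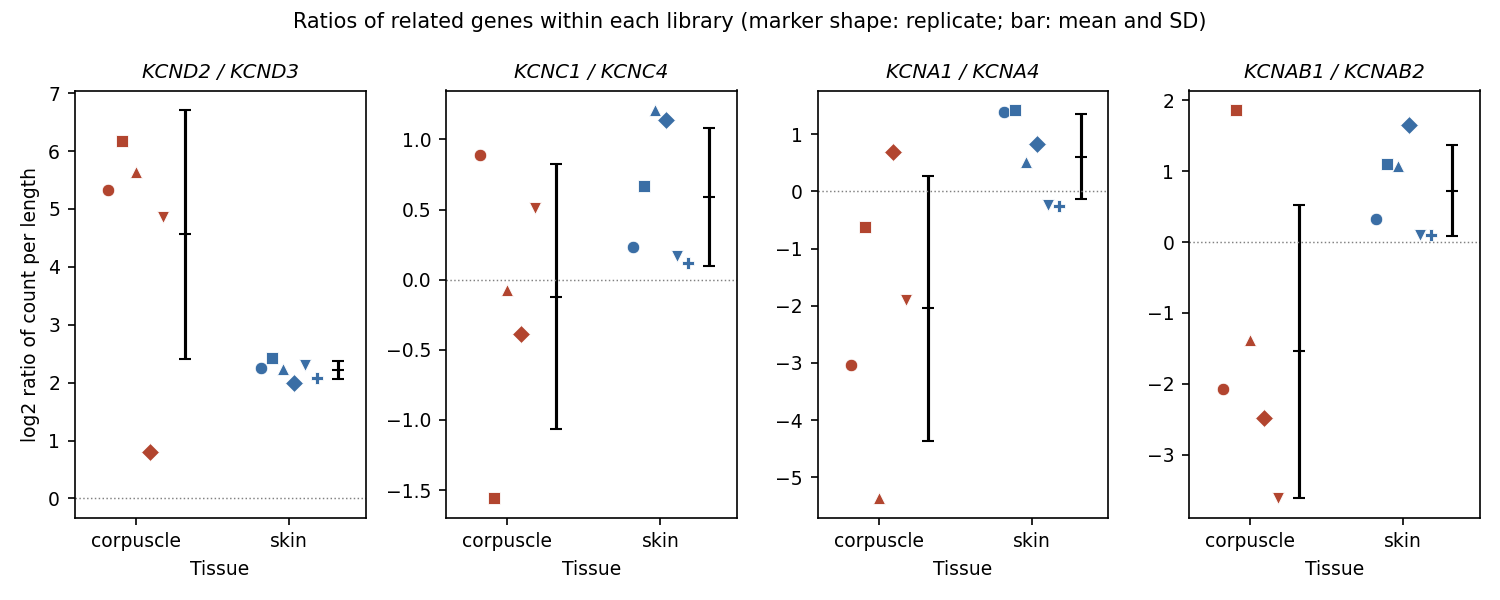
Log2 ratio of count per length for 4 pairs of related genes in each corpuscle (red, left) and skin library (blue, right); marker shapes give the replicate number and bars the mean and SD. Skin libraries lie close together for KCND2 over KCND3 (SD 0.157), and corpuscle 4 lies below them.

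The genes whose pattern over the 11 libraries was most like that of KCND2, the most abundant member per length, were LAPTM4B, KCNJ5, TMEM254, SCIN and NHLH1. Likeness was the root mean square difference of log2 CPM after each gene was centred on its mean, among 10573 named genes of at least 5 CPM. It was 0.535 for LAPTM4B, a lysosomal membrane protein, and 0.549 for KCNJ5, an inward rectifier potassium channel. It was 0.552 for TMEM254, 0.575 for SCIN, an actin-severing protein, and 0.579 for NHLH1, a neuronal transcription factor, while the median over all candidates was 2.49. All 5 were lowest in corpuscle 4, as was KCND2, which follows in part from how they were chosen. LAPTM4B had 1326, 692, 1585, 167 and 1475 CPM in corpuscles 1 to 5, with a mean of 1049 ± 602 CPM, and 51.9 ± 14.6 CPM in skin. Of the other members KCNA4 was nearest to KCND2 (0.765) and KCNA1 farthest (2.47).

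Other pore genes and subunits that modify or hold Kv channels were taken from lists of 46 genes, of which 37 were in the table and 35 were tested. Of these 17 (48.6%) were called higher, 5 (14.3%) lower and 13 neither, where 33.0% of all genes tested were called higher and 23.5% lower, with a median log2 fold change of 1.08 against 0.18 over all genes tested. Against a fold of 2 the counts were 11 higher and 2 lower, and without corpuscles 4 and 5 they were 18 and 8. KCNA10, a Kv1 pore gene, had 85 reads over all corpuscles and 0 in skin, where a count of 0 allows up to 0.143 to 0.226 CPM, and did not pass the filter on low counts.

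The auxiliary list held KCNIP, DPP and KCNE genes, while AMIGO1, a Kv2 auxiliary protein called lower, was listed with the anchoring genes. Of the 10 listed auxiliary genes tested 7 were called higher and none lower, against 33.0% higher and 23.5% lower over all genes. All 4 KCNIP genes, which encode calcium-binding proteins that attach to Kv4 pores, and both DPP genes, which encode membrane proteins of the same complex, were called higher, and of the 4 KCNE genes 1 was. The median log2 fold change of the auxiliary genes tested was 1.70. KCNIP1 averaged 63.1 ± 34.5 CPM in corpuscle libraries and 15.8 ± 4.06 CPM in skin libraries, and its log2 fold change was 1.99 ± 0.38 (edgeR adjusted p = 0.000414). KCNIP4 averaged 32.9 ± 20.9 CPM in corpuscle libraries and 3.70 ± 1.23 CPM in skin libraries (3.15 ± 0.45, edgeR adjusted p = 2.84e-05), and did not pass among corpuscles 4 and 5 with skin 5 and 6 (2.02). Named after their values were seen, KCNIP2 and KCNIP3 rose by 3.80 ± 0.57 and 3.50 ± 0.46. Their corpuscle means, 2.01 and 4.12 FPKM, were under the 4.55 FPKM 95th percentile of the genes of unrelated organs.

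DPP10 had 144, 75.3, 115, 149 and 148 CPM in corpuscles 1 to 5, and 49.9 ± 20.9 CPM in skin (log2 fold change 1.34 ± 0.29, edgeR adjusted p = 0.00125). DPP6 had 149, 81.9, 220, 15.4 and 42.0 CPM in corpuscles 1 to 5, and 38.3 ± 13.0 CPM in skin (1.41 ± 0.50, edgeR adjusted p = 0.0245). DPP6 was low in corpuscle 4, as was KCND2, while DPP10 and KCNIP1 were not. DPP6 lost its call without corpuscle 1 (1.21), without corpuscle 3 (0.91), without skin 3 (1.33), with limma-voom (1.05) and with a replicate block (1.03), and among corpuscles 4 and 5 with skin 5 and 6 its sign turned (-0.21). Against a fold of 2 neither DPP10 nor DPP6 passed (edgeR adjusted p = 0.119 and 0.197).

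Electrically silent subunits, which join Kv2 pores and change their gating, numbered 10 in the table, of which 9 were tested. KCNV2, with 218 reads over all corpuscles and 5 over all skin libraries, was not kept by the filter on low counts. Of the 9 tested, 3 (33.3%) were called higher, 1 (11.1%) lower and 5 neither, with a median log2 fold change of 0.20. That share of higher calls was close to the 33.0% over all genes tested, and the median to the 0.18 over all genes. KCNG2 averaged 10.5 ± 9.08 CPM in corpuscle libraries and 1.46 ± 0.606 CPM in skin libraries (log2 fold change 2.84 ± 0.55, edgeR adjusted p = 0.000456), and did not pass among corpuscles 4 and 5 with skin 5 and 6 (1.41). KCNS3 averaged 10.4 ± 6.30 CPM in corpuscle libraries and 1.95 ± 0.683 CPM in skin libraries (2.40 ± 0.45). KCNS1 averaged 3.71 ± 1.19 CPM in corpuscle libraries and 0.411 ± 0.186 CPM in skin libraries (3.13 ± 0.44). The corpuscle means of KCNS3 (0.893 FPKM) and KCNS1 (0.806 FPKM) were under the 1.34 FPKM median of the genes of unrelated organs. That of KCNG2 (1.65 FPKM) was under their 95th percentile of 4.55 FPKM. The part of such low-level reads in these rises was not tested. KCNV1 averaged 1.36 ± 1.35 CPM in corpuscle libraries and 3.81 ± 1.11 CPM in skin libraries (-1.54 ± 0.62, edgeR adjusted p = 0.0455), and its call held under 7 of 22 alternatives.

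The list of genes that anchor or cluster Kv channels, which also held AMIGO1 and KCNRG, had 13 genes tested. Of these 6 (46.2%) were called higher, 4 (30.8%) lower and 3 neither, against 33.0% higher and 23.5% lower over all genes tested. Their median log2 fold change, 0.19, was close to the 0.18 over all genes. ADAM22, a membrane protein found with Kv1 channels on mammalian axons, averaged 1619 ± 437 CPM in corpuscle libraries and 181 ± 17.2 CPM in skin libraries (3.16 ± 0.20, edgeR adjusted p = 4.23e-08). VAPA and VAPB, which tether Kv2 channels to the endoplasmic reticulum, stood at 491 ± 182 and 377 ± 54.3 CPM in corpuscles and 139 ± 18.7 and 131 ± 14.0 CPM in skin, and rose by 1.82 ± 0.23 and 1.53 ± 0.17. DLG1, a scaffold that binds Kv1 tails, fell, at 87.5 ± 11.3 CPM in corpuscle libraries and 172 ± 12.3 CPM in skin libraries (-0.98 ± 0.18, edgeR adjusted p = 0.000274). CNTN2, an adhesion protein that holds Kv1 channels beside nodes of Ranvier, fell, at 18.2 ± 11.5 CPM in corpuscle libraries and 44.5 ± 10.7 CPM in skin libraries (-1.29 ± 0.41, edgeR adjusted p = 0.0132). Neither DLG1 nor CNTN2 passed among corpuscles 4 and 5 with skin 5 and 6 (-1.08 and -0.58) or against a fold of 2 (edgeR adjusted p = 0.524 and 0.214). Named after its value was seen, AMIGO1, an auxiliary protein of Kv2 channels, fell, at 1.70 ± 0.965 CPM in corpuscle libraries and 11.7 ± 3.20 CPM in skin libraries.

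**Figure D4:**
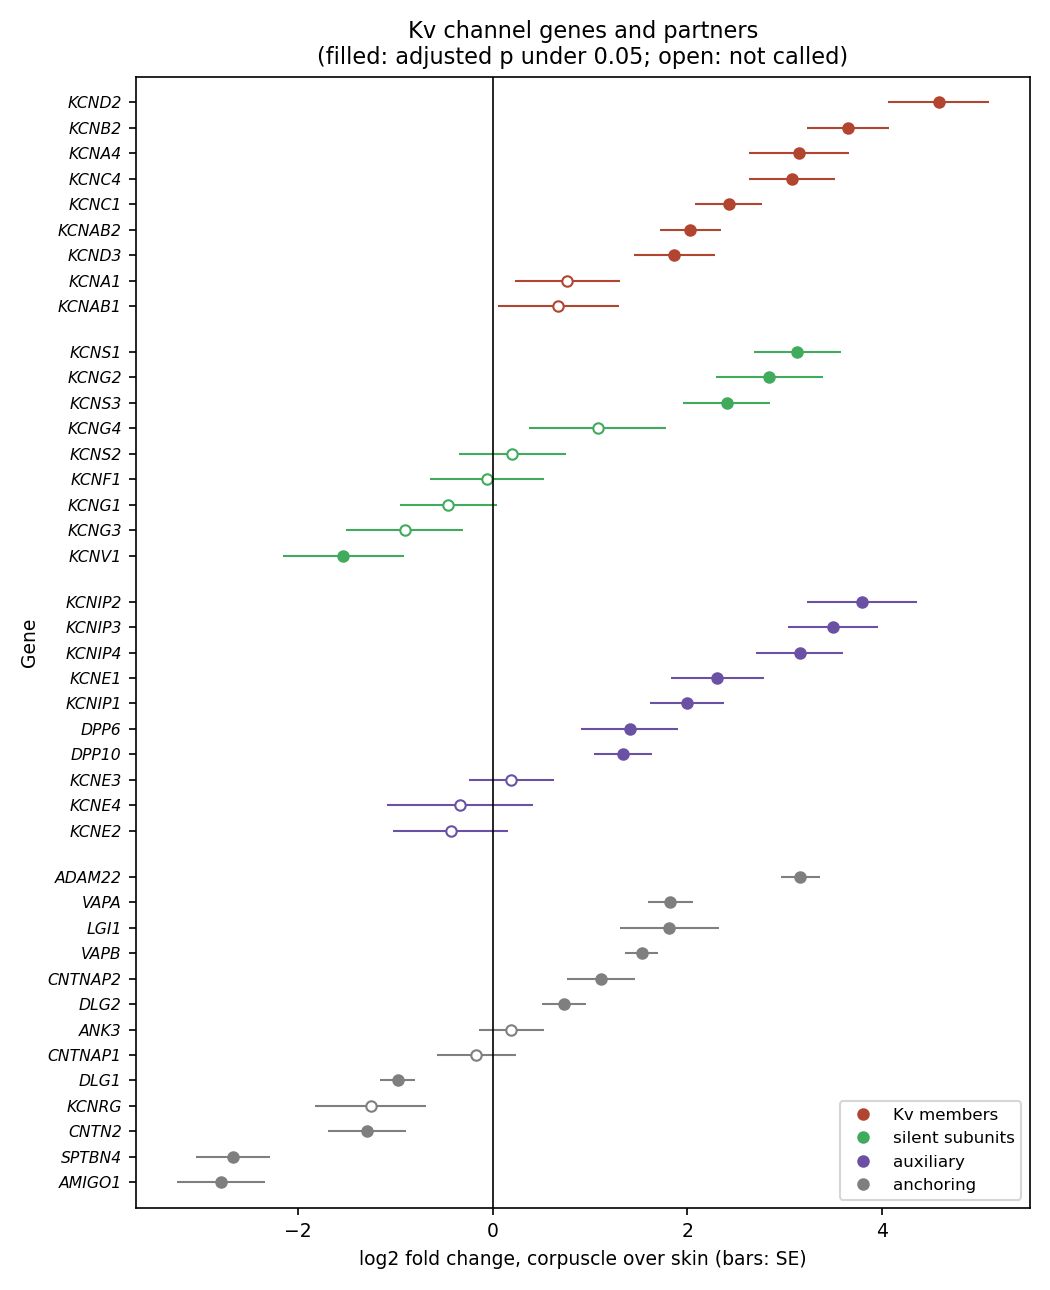
Log2 fold change, corpuscle over skin, with SE, of the 9 Kv genes and of the 9 silent, 10 auxiliary and 13 anchoring genes tested; filled points passed edgeR's test at an adjusted p of 0.05 and open points did not. The Kv genes run from KCND2 (4.58) to KCNAB1 (0.67), and the anchoring genes hold the lowest value (AMIGO1).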

How the data were processed

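RNA sequencing of 5 corpuscle and 6 skin libraries was used. The authors deposited whole-number read counts per gene, a normalized count (a signal that the values show to be the count over 1 factor per library) and FPKM, which is that signal per kilobase with 1 length per gene. Their deposited comparison lists a log2 fold change of skin over corpuscle, a p-value and a false discovery rate. Tools listed, per the submitters' processing notes, include STAR (2.7.7a), Trimmomatic (0.39), featureCounts with Subread (2.0.1), CASAVA (1.8.2), and edgeR (3.38.4) under R (4.2.1). The build, annotation and strand setting are not given in the sources used here. Of 4214 locus identifiers, 3196 matched a RefSeq table of the Pekin duck, used for names, overlaps and neighbours alone, and 603 gained a symbol.

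The fit used edgeR 4.0.16 under R 4.3.3 on all 11 libraries, with filterByExpr, TMM scaling and a robust quasi-likelihood test, and p-values were adjusted by Benjamini-Hochberg over all 14638 genes tested. SE is the fold change over the root of the F statistic. Ratios of counts per length (0.5 added to each count) were compared by exact permutation tests over libraries. In simulated counts for corpuscle against skin, on 14638 genes, 53% of 100 genes with a 4-fold change and 10% of 100 with a 2-fold change were recovered, and 4 of 67 calls were false. The simulation changed few genes and gave both tissues the same spread, while in the real data 56.4% of genes were called and corpuscles varied more. Its rates therefore do not carry over to the real comparison. A gene with 3 reads stands at 0.520 CPM in the library of least depth and 0.143 CPM in that of greatest depth, which covers counting error only. As a check for a library deposited more than once, replicates were compared with counting noise; no pair agreed within it (lowest chi-square per degree of freedom 11.6), so each library was counted as 1 replicate.

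The members and lists, and the split of corpuscles 4 and 5 with skin 5 and 6 from the rest, were chosen with earlier results of these data known. Named beyond the members were, by rule, up to 4 called genes per list by FPKM in corpuscles, up to 2 called lower, and the 5 genes nearest to the most abundant member. Alternatives were other scalings, filters, DESeq2 1.42.0, limma 3.58.1 (voom), a test against a fold of 2, thinning, a replicate block and leaving out libraries. Figures were drawn with matplotlib 3.10.9.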

Additional observations from a re-analysis of the deposited data

Results flagged for a closer look

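KCNAB1 in corpuscle 2 stood at 103 CPM, far from the other corpuscles at 4.68 to 17.99 CPM. Its gap to the nearest of them was 0.865 of the whole range of the 5 libraries. The ratio of KCND2 to KCND3 in corpuscle 4, 0.81 on the log2 scale, lay far below the other corpuscles at 4.85 to 6.17, with a gap of 0.754 of the range. These were 2 of 26 groups of libraries examined for a library far from the rest, and chance alone flags about 1 in 20.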

How the results depend on the processing

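Of the 7 members called higher, KCNAB2, KCNB2, KCNC1, KCNC4 and KCND3 passed under every alternative in which they were tested; KCND3 was not kept by the filter at 5 CPM or after thinning. KCND2 and KCNA4 passed under 22 of 23 alternatives each, failing within corpuscles 4 and 5 and skin 5 and 6 (3.39 and 2.17), where only 2 libraries per tissue were fitted. KCNAB1 was below 0 with limma-voom (-0.20), with a replicate block (-0.38), within corpuscles 4 and 5 and skin 5 and 6 (-1.06) and without corpuscle 2 (-0.78), never passing, and ran from -0.78 to 0.95 leaving out 1 library at a time; DPP6 was below 0 within corpuscles 4 and 5 and skin 5 and 6 (-0.21). Against a fold of 2, 4571 of 8263 genes were called, 3111 higher and 1460 lower, with 11 and 2 of the other Kv genes; within corpuscles 4 and 5 and skin 5 and 6 it was 5290, with 1514 lower and 3 other Kv genes lower, and without corpuscles 4 and 5 it was 8 other Kv genes lower. Ratio differences without corpuscles 4 and 5 were 3.50 (KCND2 to KCND3) and -3.62 (KCNA1 to KCNA4). Both passed, but these libraries were left out with their values known, so no conclusion is drawn from that. Leaving out 1 library at a time, the same differences ran from 1.94 to 3.28 and from -3.34 to -1.83. For KCNAB1 to KCNAB2 the difference ran from -3.12 to -1.75. By CPM in place of FPKM the shares in skin were 27.6% for KCNA1, 6.84% for KCNB2, 5.94% for KCNC1 and 1.60% for KCND3, since CPM does not divide by length. The median log2 fold change of all genes was 0.33 with upper-quartile factors and 0.34 without a filter. It was also 0.34 within corpuscles 4 and 5 and skin 5 and 6. With limma-voom (-0.05) and with the replicate block (-0.06) that median lay below 0.

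Libraries with the same replicate number did not deviate together (correlations from -0.18 to 0.18, over 0.1 in 1 of 5 pairs, none best with its own number). With the replicate block over replicates 1 to 5, 7005 genes and the same 7 members were called. No other cause of these differences was tested. Depth limits KCND3, at 8 to 38 reads per library.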

Other observations

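The genes next to the members in the RefSeq table of the Pekin duck moved in both directions. KCND2 lies beside TSPAN12, which averaged 25.9 ± 16.5 CPM in corpuscle libraries and 52.8 ± 3.95 CPM in skin libraries, a log2 fold change of -1.03 (edgeR adjusted p = 0.0219). KCNAB2 lies between NPHP4 (-0.12, not passing) and CHD5 (-1.14, edgeR adjusted p = 0.0223). KCNA4 lies between METTL15 (1.62, edgeR adjusted p = 0.00144) and MPPED2 (1.16, edgeR adjusted p = 0.00938). KCNB2 is next to TRPA1, the irritant channel, which rose too (7.03, edgeR adjusted p = 6.51e-06), with 6.72 ± 6.37 CPM in corpuscle libraries and 0.0416 ± 0.0554 CPM in skin libraries, and to TERF1, which did not pass (0.83, edgeR adjusted p = 0.0575). FSHB, of a pituitary hormone subunit, whose RefSeq gene overlaps that of KCNA4, averaged 8.78 ± 11.3 CPM in corpuscle libraries and 0.0116 ± 0.0285 CPM in skin libraries, and was not kept by the filter on low counts.

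Among pore genes outside the members, KCNC2 (Kv3.2) did not pass (log2 fold change 1.21, edgeR adjusted p = 0.0747), and is named after its values were seen. It had 3.28, 3.11, 4.73, 29.3 and 19.5 CPM in corpuscles 1 to 5, and 3.50 to 5.99 CPM in skin. Corpuscles 4 and 5, in which KCND2 was lowest, were the highest in KCNC2.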
